A study of Macaca nemestrina with 58 samples.

Results

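OCA2 and 5 other genes of pigment cells were followed through the menstrual cycle and through hormonal contraception in the vaginal wall of pig-tailed macaques. The genes are OCA2, TYR, TYRP1, DCT, PMEL and MLANA. They were found as the probe sets of the array whose annotation gives 1 of these symbols and no other, which yielded 12 probe sets among the 52707 that are not controls, and so 6 of the 14132 genes that a probe set names alone. OCA2, TYRP1 and PMEL have 1 probe set each, TYR has 2, DCT has 3 and MLANA has 4. OCA2 leads the group and was chosen by its measured differences between cycle phases in these same baseline samples, so its cycle values are given as a description, without a test.

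The biopsies came from 15 animals of Macaca nemestrina. Of these, 9 received DMPA, the injected progestin depot medroxyprogesterone acetate, at doses that the labels give as 0.5, 1.5 and 2.5 without a unit. The other 6 received the treatment labelled LNG, a combined oral contraceptive in the series' own words, and 3 of them are labelled High and 3 Low. Each animal's untreated biopsies serve as baseline, 28 in all: in the follicular phase 10 were early and 5 late, and in the luteal phase 4 were early and 9 late. Treated biopsies carry a time label, which is 1D4 (8 samples) or 2D2 (9 samples) for DMPA and 5th or 7th (6 samples each) for LNG. A mark (A-) on 5 of the 12 LNG arrays is left unexplained by the labels. No animal was followed untreated to the later times, so treatment and elapsed time cannot be told apart. The labels give no age for the animals, and the arrays were designed for the rhesus macaque, a related species.

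Melanocytes make pigment in melanosomes, organelles related to lysosomes, and sit as scattered cells in the basal layer of skin and of some mucosal epithelia. The enzymes TYR, TYRP1 and DCT make melanin there, on fibrils built from PMEL, and MLANA is a membrane protein of the same organelle. OCA2 is a membrane protein that moves chloride and raises the pH inside the melanosome, which tyrosinase needs to work, and its loss causes a common form of albinism in humans.

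All values are log2 expression as deposited, where a difference of 1 is a 2-fold difference in signal. Medians of the arrays lay between 6.07 and 6.25. The GAPDH control transcript was read at its 3' and 5' ends, and the difference between them widens as RNA degrades: it averaged 1.57, 1.50, 1.74 and 1.81 in the 4 phases from early follicular to late luteal, 1.99 and 2.43 at DMPA 1D4 and 2D2, and 2.05 and 2.11 at LNG 5th and 7th. In whole biopsies fewer cells of a type and less RNA per cell cannot be told apart.

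Only OCA2 and 1 MLANA probe set were bright enough to be tested with the bulk of the array, which required a mean of at least 5.53, the 40th percentile. OCA2 averaged 5.96, at the 46.9th percentile of all probe sets, and the brightest MLANA probe set averaged 5.79, at the 44.2th percentile. Just outside the limit among the 12 were the other MLANA probe sets, at 4.95, 4.93 and 4.55. TYR averaged 4.35 and 3.36, DCT 4.11, 4.06 and 3.47, TYRP1 2.58 and PMEL 2.31, the last at the 2.01th percentile. The genes that define a melanocyte were thus near the dim end of the array, and the name melanocyte genes is used here for what these genes are known for, not for cells seen in these biopsies.

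OCA2 varied most among the 12 probe sets. It spanned 3.98 to 8.58 over the 57 samples, with an SD of 1.31, which is larger than that of 97.1% of the 31624 probe sets tested (median SD 0.36). The brightest probe sets of TYR and TYRP1 had SDs of 0.29 and 0.18. The measure was noisy in the only check of repeat arrays: 2 arrays of the late follicular biopsy label of animal BB537, of which 1 is labelled a duplicate, read 6.55 on the duplicate and 8.14 on its partner. That gap of 1.58 is larger than the gap of 98.7% of probe sets between the same arrays, whose differences had an SD of 0.49. The mean of both, 7.35, is used for that animal.

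In the untreated cycle OCA2 was high in the follicular phases and low in the luteal phases. In the early follicular phase it ranged from 5.99 through a median of 7.33 to 8.58. In the late follicular phase it was 7.15, 7.35, 7.92, 7.97 and 8.46. These phases lie on each other, and the late follicular phase held no sample under 7.

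In the early luteal phase OCA2 was 4.92, 5.43, 5.85 and 7.78. In the late luteal phase it ranged from 3.98 through a median of 5.86 to 6.92. Apart from animal BB981, with 7.78, each luteal sample lay under each late follicular sample, while the luteal and early follicular ranges overlapped. Of the luteal samples 1 of 13 exceeded 7, against 11 of 15 follicular samples.

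The phases averaged 7.28 ± 0.86 (early follicular, SD, n = 10), 7.77 ± 0.53 (late follicular, n = 5), 5.996 ± 1.25 (early luteal, n = 4) and 5.55 ± 0.98 (late luteal, n = 9). The luteal mean was 1.80 ± 0.30 (standard error) lower than the follicular mean on the log2 scale, which is 3.48-fold. In the fit the widest step from early follicular to late luteal lay between the late follicular and the early luteal phase, lower by 1.83 ± 0.52. Only BB4800 had both of these biopsies, at 7.15 and 5.85, so the place of the step rests mostly on different animals. The steps from early to late follicular (0.60 ± 0.44) and from early to late luteal (-0.54 ± 0.48) were of the size of their errors. Only PHQ1 had both follicular phases, at 6.15 and 8.46, and no animal had both luteal phases. These values chose OCA2 and carry no test.

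**Figure D1:**
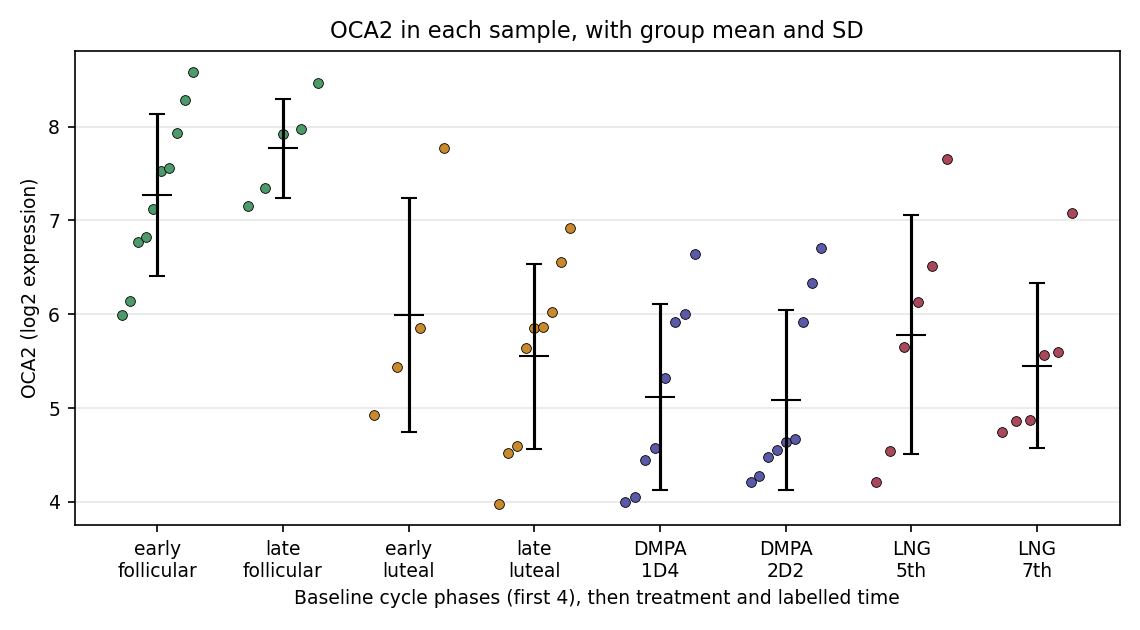
OCA2 in each of the 57 samples (points, log2 expression) by cycle phase and by treatment and labelled time, with the group mean and SD (bars). The late follicular samples sit between 7.15 and 8.46, and all 17 DMPA samples sit under 7.

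The difference was present within animals. In the 12 animals with both kinds of baseline biopsy the luteal value was the lower in 12 of 12. The gap ran from -2.94 in BB967 to -0.16 in BB981, with a median of -1.96. BB981, with 7.78 in the luteal and 7.94 in the follicular biopsy, and BB4870, with 6.92 and 7.13, showed hardly any gap, and the next smallest was -1.30 in BB4800. Leaving out 1 animal at a time kept the fitted difference between -1.94 and -1.66, and a fit with the GAPDH difference as a covariate gave -1.60.

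Transcripts of the surface epithelium moved unevenly across the cycle. The mean of 10 genes of mature squamous cells was 12.2, 12.8, 12.3 and 11.7 in the 4 phases from early follicular to late luteal. None of these 10 genes passed between the luteal and follicular phases (median fitted difference 0.26, against -0.02 over all genes). At an adjusted p under 0.05 in limma, 1.96% of the 11199 genes passed in that comparison, each gene taken by its brightest probe set. Within the 12 paired animals the squamous mean was lower in the luteal biopsy in 9 and higher in 3, with a mean difference of -0.50 and a median of -0.17. PPi2, with 8.53 in the luteal and 12.7 in the follicular biopsy, and BB967, with 9.12 and 13.0, had the widest gaps. Over the 28 baseline samples the 10 genes correlated with OCA2 at a median r of 0.43. They ranged from 0.03 (KRT4) to 0.67 (DSG1, a desmosome gene). The part of the epithelium in the OCA2 difference was not tested.

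After DMPA, OCA2 was low in nearly all animals. At 1D4 it ranged from 4.00 through a median of 4.94 to 6.64, and at 2D2 from 4.21 through 4.64 to 6.70, against 3.98 through 6.80 to 8.58 in the 28 baseline samples. No DMPA sample reached 7, and the DMPA ranges overlap with the luteal and the early follicular samples and lie under the late follicular ones.

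Against the animals' own baseline OCA2 was lower by 1.32 ± 0.41 (standard error) on the log2 scale at 2D2, which is 2.50-fold, with 9 of 9 animals lower. At 1D4 it was lower by 1.43 ± 0.43 (2.70-fold), with 7 of 8 animals lower and PPi2 higher by 0.32. The baseline holds the follicular samples whose high level chose OCA2, so these differences are a description too and carry no test. Over all 31624 probe sets, 28.1% passed at 2D2 and 23.2% at 1D4 at an adjusted p under 0.05 in limma (12.1% and 11.9% as lower).

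The size of the difference moved with the fit. With the GAPDH difference as a covariate it was -0.25 at 2D2 and -1.01 at 1D4, and with the actin difference -1.25 at 2D2. Leaving out 1 animal at a time gave -1.42 to -1.13 at 2D2 and -1.69 to -1.23 at 1D4.

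The size differed with the part of the cycle that the DMPA samples were set against. They were lower than the follicular samples by 2.34 ± 0.33 at 2D2 and 2.44 ± 0.34 at 1D4. They were lower than the luteal samples by 0.54 ± 0.34 at 2D2, in 6 of 8 animals, and by 0.64 ± 0.35 at 1D4, in 5 of 7 animals. These 4 differences carry no test either.

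**Figure D2:**
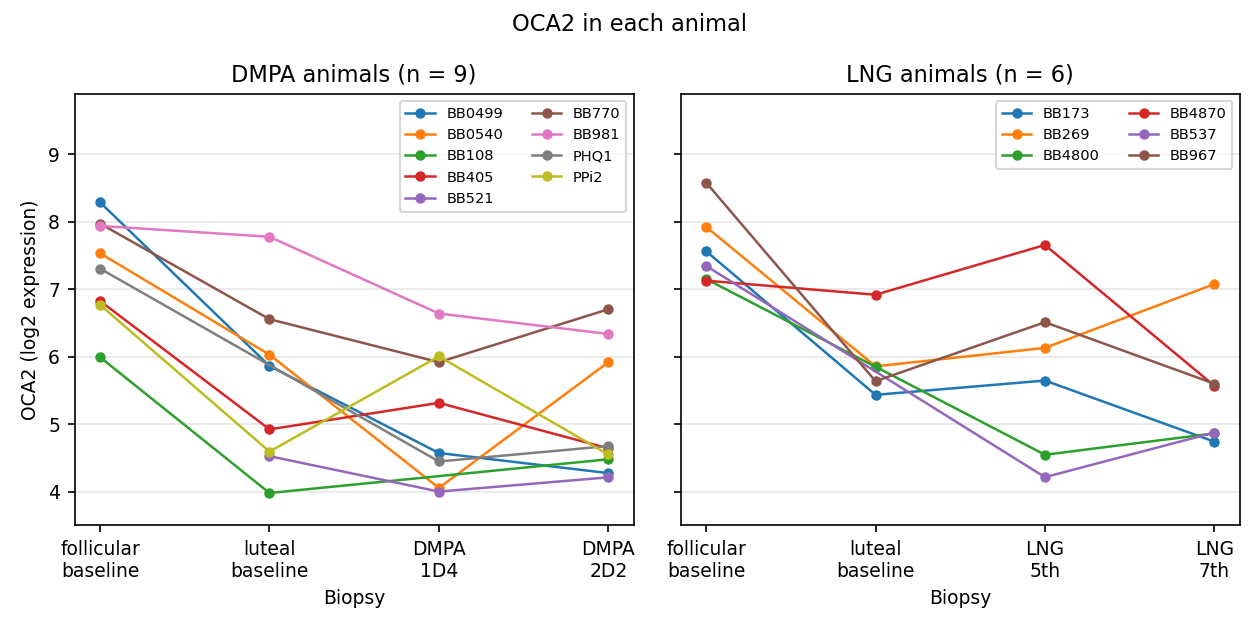
OCA2 (log2 expression) in each animal from the follicular and luteal baseline biopsies to the 2 labelled times of its treatment, DMPA at left and LNG at right; a line crosses a biopsy the animal lacks, and the follicular point of PHQ1 is the mean of 2. Lines drop to the luteal point in all 12 animals that have both, and the DMPA points lie at or under 6.70.

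No difference in OCA2 passed between the times of DMPA. Of all 31624 probe sets 0% passed in limma between the DMPA times or between the arms (1655 and 2029 under an unadjusted p of 0.05). At 2D2 against 1D4 the change was 0.11 ± 0.49 (adjusted p = 1.00), with 4 animals up and 4 down. The labelled dose gave a slope of -0.36 ± 0.47 per labelled unit at 2D2. A slope at 1D4 was not fitted. At 1D4 the animals labelled 2.5 changed from baseline by -2.502 (BB0499), -2.73 (BB0540) and -2.86 (PHQ1). The others ran from -1.35 in BB770 to 0.32 in PPi2, both labelled 0.5. At 2D2 the doses overlapped, with -0.86 in BB0540 (labelled 2.5) and -1.52 in BB981 (labelled 1.5). PHQ1 had only follicular baseline biopsies. BB521 (labelled 1.5), which changed by -0.52 at 1D4, had only a luteal one, at 4.53. The part of dose at 1D4 was not tested. The mean change after DMPA minus the mean change after LNG was -0.19 ± 0.54. The dose slope, the changes by dose and the difference between the arms rest on the baseline samples that chose OCA2, so they carry no test.

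After LNG, OCA2 was lower than baseline in 5 of 6 animals at each time. At the 5th time it was 4.21, 4.55, 5.65, 6.13, 6.51 and 7.66, and at the 7th time 4.74, 4.86, 4.88, 5.57, 5.60 and 7.08, against a range of 5.43 to 8.58 in the LNG animals' own baseline. BB4870 stood highest at the 5th time and BB269 at the 7th. Both animals are labelled High, and both of these samples carry the (A-) mark. All High samples lay above all Low samples at both times. They ran from 6.13 to 7.66 against 4.21 to 5.65 at the 5th time, and from 5.57 to 7.08 against 4.74 to 4.88 at the 7th.

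The difference from baseline was -1.02 ± 0.51 at the 5th time and -1.35 ± 0.51 at the 7th, again without a test. With the 4 phases at equal weight in the baseline it was -1.26 at the 7th time, and with array weights -1.41. With the GAPDH covariate it was -0.43 at the 5th time and -0.67 at the 7th. Of all 31624 probe sets 0% passed at the 5th time (6828 under an unadjusted p of 0.05) and 0.00632% at the 7th, but these counts belong to 1 fit. With array weights 1708 passed at the 5th time and 3572 at the 7th, and with the 4 phases at equal weight 1808 and 1950. For OCA2, High animals changed by 1.30 ± 0.94 more than Low animals at the 5th time, also without a test. The largest falls were in BB537 (Low), by -3.13 at the 5th time and -2.47 at the 7th. That animal had only a late follicular baseline biopsy and no luteal one.

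Ordered by their means, the groups ran from late follicular (7.77) and early follicular (7.28) through early luteal (5.996), LNG 5th (5.78), late luteal (5.55), LNG 7th (5.45) and DMPA 1D4 (5.12) to DMPA 2D2 (5.09). The only neighbours farther apart than the larger of their SDs are early follicular and early luteal, 1.28 apart with an SD of 1.25. From early luteal down, each step is 0.33 or less.

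TYR and TYRP1 varied little between groups. TYR, whose enzyme catalyses the rate-limiting steps of melanin synthesis, kept group means of its brighter probe set between 4.18 (DMPA 2D2) and 4.58 (LNG 5th), with SDs from 0.18 to 0.36. TYRP1, an enzyme that stabilizes tyrosinase, kept group means from 2.47 (late luteal) to 2.70 (late follicular). Across the luteal and follicular phases the dim members differed by between -0.21 and 0.27, given here as a description.

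DCT, the enzyme that converts dopachrome, was read by 3 probe sets that disagreed. Without the filter on dim probe sets, 1 of its 3 probe sets passed at 1D4, where it was higher by 0.78 ± 0.23 (adjusted p = 0.0210) and averaged 4.11 ± 0.85 at 1D4 (SD, n = 8) and 3.21 ± 0.66 in the baseline (n = 28). A second one, which correlates with it at r = 0.79 over the 57 samples, was higher by 0.50 ± 0.19 (adjusted p = 0.0646). The third changed by -0.08 ± 0.11 and correlates with them at -0.13 and 0.01. Of the 11 probe sets other than OCA2 this was the 1 called at 1D4 in that fit, where 15.2% of all probe sets passed, and none of the 11 was called at 2D2, where 17.3% passed. None was called at LNG 5th or 7th, where 0.0019% and 0.00759% of all probe sets passed.

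MLANA was measured by its brightest probe set and did not pass at any time. Its group means lay between 5.57 (late luteal) and 6.05 (LNG 7th), and the changes were 0.27 ± 0.20 at DMPA 2D2 (adjusted p = 0.329), -0.00061 ± 0.21 at 1D4, 0.027 ± 0.25 at LNG 5th and 0.38 ± 0.25 at LNG 7th. Between luteal and follicular phases it differed by -0.020 ± 0.22. Its 4 probe sets correlate with each other at between -0.06 and 0.41, so they do not give 1 common reading.

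PMEL, the fibril protein, sat near the floor in most samples, with group means from 1.97 (late follicular) to 2.81 (LNG 7th). Single treated samples stood out: 5.16 in BB4800 at LNG 5th, 4.65 in BB4870 at LNG 7th and 3.64 in PPi2 at DMPA 2D2, against a highest baseline value of 2.92. The change at LNG 5th was 0.54 ± 0.32 (adjusted p = 0.384) and without the BB4800 sample -0.03 ± 0.26 (adjusted p = 0.985).

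The BB4800 sample stood out for several nerve transcripts. Of 10 Schwann cell and nerve genes read, SOX10 included, 7 were highest there among the 57 samples. They include S100B at 9.88 (next highest 7.47), UCHL1 at 11.9 (8.04), SCN7A at 10.7 (5.38), CDH19 at 8.28 (5.31) and SOX10 at 7.14 (6.03). The list was not raised as a whole, since NCAM1 (9.87) and ERBB3 (9.25) ranked 56 of 57 from the highest there and GFRA3 (6.44) ranked 10. NCAM1 is read here by its brightest probe set, which changed by 0.00053 at LNG 5th. Its other tested probe sets changed by 0.81, 1.52, 1.28 and -0.04 at that time, so the NCAM1 rank rests on 1 probe set. Of the 10, 8 lay above the median of all samples. SOX10 and S100B are shared by Schwann cells and melanocytes. In that sample OCA2 was 4.55, TYR 4.61 in its brighter probe set, TYRP1 2.41 and MLANA 6.27, all inside the range of the other samples. BB4870 at LNG 7th, with PMEL at 4.65, also lay above the median of all samples for 8 of the 10. In it UCHL1 was 7.67 (median 5.41), NGFR 9.92 (8.69) and S100B 6.23 (5.51). The mean of the 7 tested nerve genes was 9.62 in BB4800 at LNG 5th and 8.09 in BB4870 at LNG 7th. Some samples with lower PMEL had a higher nerve mean than BB4870. Among them were BB0540 at DMPA 1D4 (8.42, PMEL 2.15) and BB0499 at DMPA 2D2 (8.24, PMEL 2.32). The part of these transcripts in the PMEL values was not tested.

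**Figure D3:**
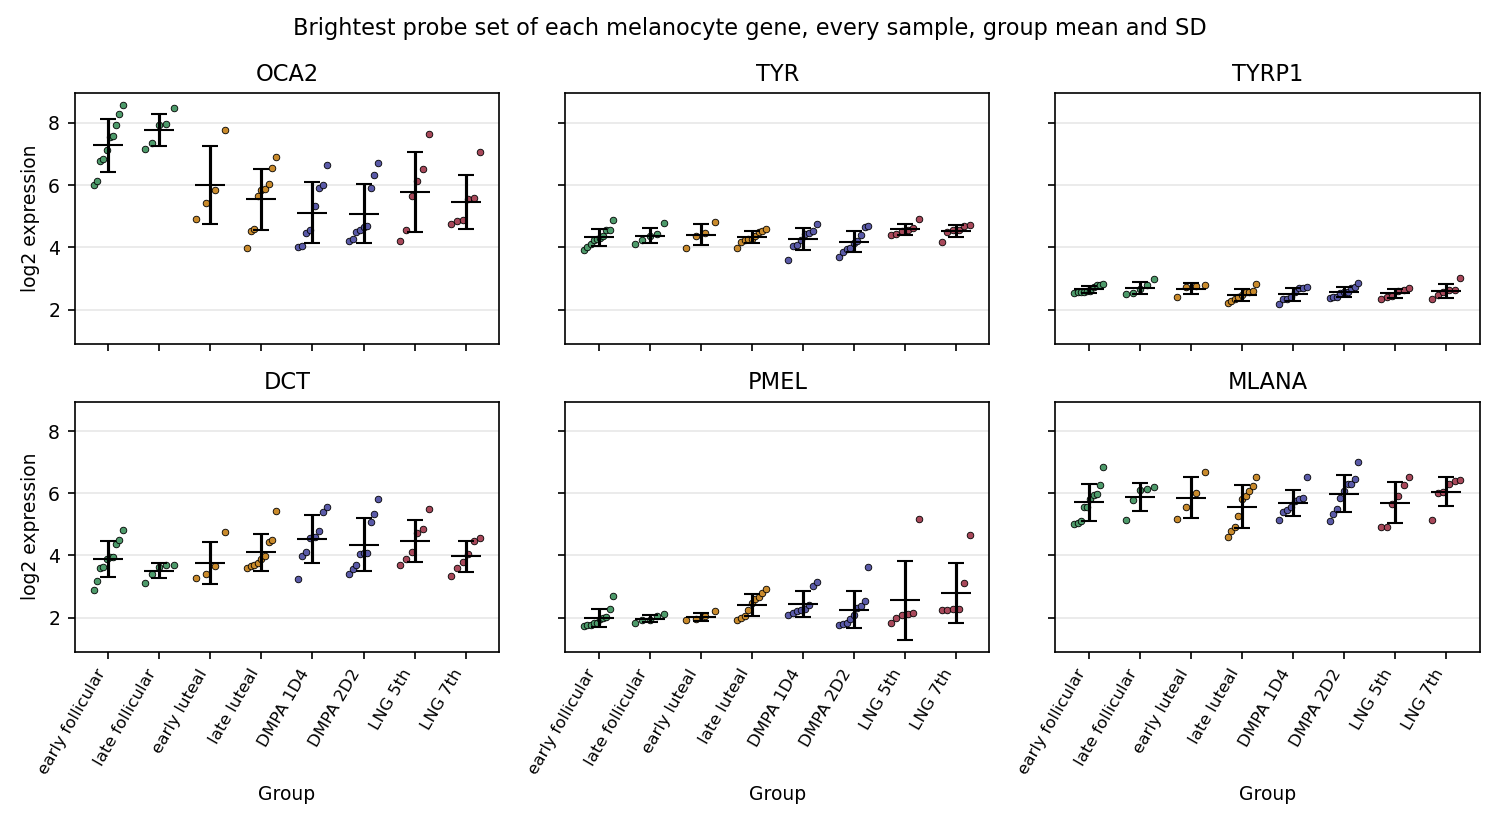
The brightest probe set of each of the 6 genes in every sample (points, log2 expression, the same axis in each panel) with group means and SDs (bars). OCA2 is lower in the groups after the follicular phases, the TYR means lie between 4.18 and 4.58, and PMEL is near 2 in most samples, with single LNG samples at 5.16 and 4.65.

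Likeness to OCA2 across the 57 samples was also read for the other 11 probe sets. Pearson's r ran from -0.38 (a DCT probe set) to 0.51 (the dimmer TYR probe set), with MLANA between -0.04 and 0.19. Over the 28 baseline samples alone it was 0.61 for TYRP1 and -0.63 for PMEL. Samples share animals, and dim probe sets share background, so these are descriptions.

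Genes that move ions, copper and cystine in melanosomes were next, on a list that also holds the melanosome protein GPNMB. Of the 6 measured of 10 listed, 3 fell and none rose at DMPA 2D2, and 4 fell and none rose at 1D4, where 31.3% and 25.8% of genes passed in either direction. The median of the 6 was -0.39 at 2D2 and -0.40 at 1D4, against 0.05 and 0.01 over all genes. SLC45A2, a melanosome transporter, fell by 1.42 ± 0.23 at 2D2 (adjusted p = 1.55e-04, limma) in its brightest probe set. That probe set averages 12.4 and the other SLC45A2 probe sets 5.45 and 3.22, and those changed by -0.31 and -0.08, so what the bright one reads is uncertain.

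TPCN2, a cation channel of melanosomes and lysosomes, fell by 0.60 ± 0.17 at 2D2 (adjusted p = 0.00831) and by 0.59 ± 0.18 at 1D4 (adjusted p = 0.0184). ATP7A, the copper pump that supplies tyrosinase, fell by 0.57 ± 0.15 at 2D2 (adjusted p = 0.00606) and by 0.50 ± 0.16 at 1D4 (adjusted p = 0.0252). MFSD12, a cysteine importer of melanosomes and lysosomes, fell by 0.30 ± 0.10 at 1D4 (adjusted p = 0.0337) and changed by -0.22 ± 0.10 at 2D2 (adjusted p = 0.0944). None of TPCN2, ATP7A and MFSD12 is restricted to pigment cells. At 1D4 the TPCN2 call was lost without BB981 or PHQ1 (adjusted p up to 0.0704), and the ATP7A call without BB0499, BB0540, BB981 or PHQ1 (adjusted p up to 0.118).

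TPCN2 was also the only one of the 6 to pass between the cycle phases, lower in the luteal than in the follicular phases by 0.59 ± 0.14 (adjusted p = 0.0302). That call was lost in 7 of the 15 fits that leave out 1 animal (BB173, BB269, BB4800, BB537, BB967, BB981 or PPi2, adjusted p up to 0.111), with differences from -0.67 to -0.52 over all 15. ATP7A differed by -0.46 ± 0.14 (adjusted p = 0.0617). GPNMB went the other way, by 0.93 ± 0.27 (limma adjusted p = 0.0604) in its brightest probe set and by -0.05 in its other one. With the GAPDH difference as a covariate TPCN2 changed by -0.12 at 2D2 (adjusted p = 0.882) and ATP7A by -0.19 (adjusted p = 0.785), so neither passed there.

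Of 17 measured genes that build and move melanosomes, 1 rose and 2 fell at DMPA 2D2, and 1 rose and 3 fell at 1D4, with medians of 0.07 and -0.05. That is 3 and 4 of 17, no more than the 31.3% and 25.8% of all genes that passed. MLPH (melanophilin, which ties melanosomes to a myosin motor) rose by 1.27 ± 0.29 at 2D2 (adjusted p = 0.00193), although its other probe set changed by 0.08. MREG (melanoregulin) fell by 0.72 ± 0.23 (adjusted p = 0.0161) and HPS5, a subunit of an organelle-sorting complex, by 0.27 ± 0.09 (adjusted p = 0.0234). The other tested HPS5 probe set changed by -0.08 at 2D2. The MREG change was -0.54 without BB0499 (adjusted p = 0.0857), and with the GAPDH covariate MREG changed by -0.08 and MLPH by 1.06 (adjusted p = 0.952 and 0.407). None of the 17 passed between the cycle phases, where their median was 0.01.

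Of 9 measured regulators and signals of melanocytes, 1 passed at 2D2 and 1 at 1D4, where 31.3% and 25.8% of all genes passed, with medians of 0.01 and -0.03. KIT, a receptor that melanocytes and mast cells need, rose by 1.02 ± 0.38 at 2D2 (adjusted p = 0.0430), a change of -0.13 (adjusted p = 0.956) with the GAPDH covariate, and its other fits are given with the limits. POMC, the precursor of melanocyte-stimulating hormone, fell by 0.31 ± 0.10 at 1D4 (adjusted p = 0.0256). MITF, the master regulator of the pigment program, changed by -0.44 ± 0.20 at 2D2 (adjusted p = 0.0849), and its other probe set, just under the brightness limit, by 0.43. Between luteal and follicular phases the MITF probe sets also parted, with -0.32 ± 0.18 in the brighter one and 1.57 ± 0.37 in the dimmer one, which averages 5.52 and correlates with OCA2 at -0.66. At 1D4 KIT changed by 0.96 ± 0.40 (limma adjusted p = 0.0755). None of 3 mast cell genes passed at either DMPA time. At 1D4 CPA3 changed by 1.40 ± 0.62 (adjusted p = 0.0925), MS4A2 by 0.35 ± 0.29 and HDC by -0.07 ± 0.08. Between luteal and follicular phases CPA3 differed by 1.63 ± 0.56 (adjusted p = 0.0939), MS4A2 by 0.27 ± 0.29 and HDC by -0.09 ± 0.08. None of the 9 regulators, each by its brightest probe set, passed between phases (median 0.38).

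None of 3 measured neighbours of OCA2 on the human chromosome passed in its brightest probe set in any comparison with baseline or between phases. HERC2, which in humans holds the enhancer of OCA2, changed by 0.13 ± 0.09 at 2D2 (adjusted p = 0.253) and differed by 0.16 ± 0.09 between luteal and follicular phases. Its other 3 tested probe sets had the opposite sign at 2D2, with -0.24, -0.15 and -0.23. GABRG3, a receptor subunit gene, changed by 0.065 ± 0.23 at 2D2. Between luteal and follicular phases it differed by -0.60 ± 0.22 (limma adjusted p = 0.102), and over the 28 baseline samples it correlated with OCA2 at 0.60. ATP10A, a lipid flippase gene, changed by 0.35 ± 0.17 at 2D2 (adjusted p = 0.113), while the other ATP10A probe sets gave -0.22 and -0.15. Over the 57 samples the brightest ATP10A probe set correlated with OCA2 at -0.49 and the others at 0.51 and 0.70.

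**Figure D4:**
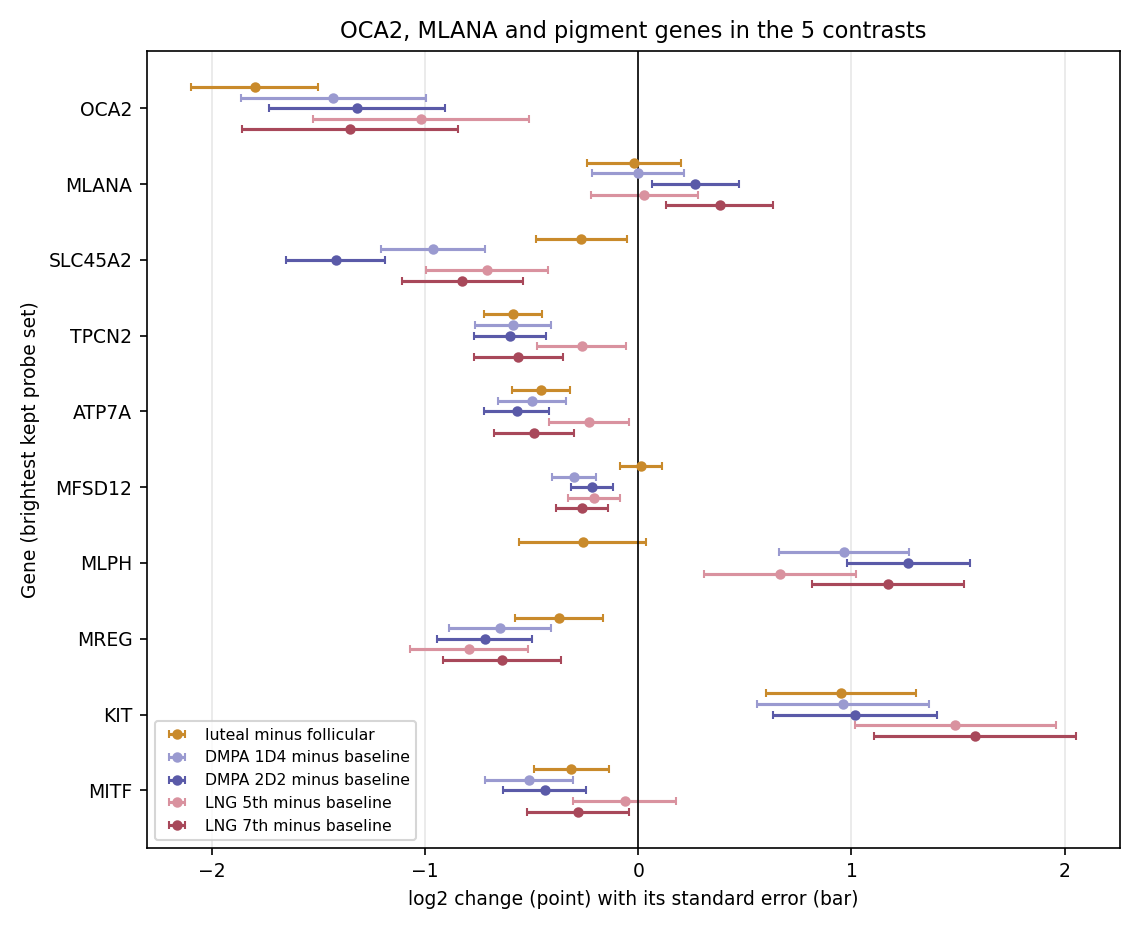
Log2 changes (points) with their standard errors (bars) for OCA2, MLANA and genes of the pigment lists in 5 contrasts, each gene by its brightest tested probe set. OCA2 is negative in all 5, from -1.80 to -1.02, MLANA lies between -0.02 and 0.38, and KIT and MLPH lie on the positive side after treatment.

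Which transcripts ran closest to OCA2 was asked over all samples, with Pearson's r across the 57 samples for 11198 other genes. The median r over the 19125 probe sets compared was -0.01. The 10 genes most alike were CUX1 (0.86), OSGIN1 (0.85), MSX2 (0.83), SFTA2 (0.83), LOC711874 (0.83), HR (0.81), ELK1 (0.81), LOC703425 (0.81), CAMK2D (0.81) and SLX9 (0.81). None is a pigment gene: CUX1 and MSX2 are homeobox transcription factors, ELK1 is an ETS factor, HR is a corepressor known from hair follicles, and CAMK2D is a calcium-dependent kinase.

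Likeness held for other probe sets of some of these genes and not of others. All 4 MSX2 probe sets had r between 0.79 and 0.83 and the second CUX1 probe set 0.81. The 4 other HR probe sets had r from -0.57 to -0.37, so HR rests on 1 probe set. With each animal's mean taken off, all 10 stayed among the 100 most alike, and within the 28 baseline samples 9 of 10 did.

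MSX2 was lower in the luteal than in the follicular phases, as OCA2 was, and its treated means lay under its luteal means, which for OCA2 did not hold at LNG 5th. It averaged 8.76 ± 0.48 and 8.90 ± 0.21 in the early and late follicular phases, 7.997 ± 0.71 and 7.92 ± 0.78 in the early and late luteal phases, 7.25 ± 0.52 and 7.22 ± 0.68 at DMPA 1D4 and 2D2, and 7.51 ± 1.37 and 7.45 ± 0.76 at LNG 5th and 7th. CUX1 moved less, with 8.66 ± 0.42 and 8.95 ± 0.26 in the follicular phases, 8.42 ± 0.44 and 8.37 ± 0.36 in the luteal phases and 7.95 ± 0.26 and 7.96 ± 0.31 after DMPA. Both were picked for their likeness, so no test is given.

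Of the pigment genes outside the 6, TPCN2 (r = 0.76), ATP7A (0.73) and MREG (0.72) were the closest to OCA2, and KIT (-0.77) ran against it. Among tissue lists the mature squamous genes had a median r of 0.59 and ranged from 0.42 to 0.72, while stroma (-0.49), endothelium (-0.55) and the nerve list (-0.42) were negative. These lists share the samples, and epithelium and stroma share each biopsy.

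After DMPA, 9 of the 10 squamous genes fell at 2D2 and 8 at 1D4, where 31.3% and 25.8% of all genes passed in either direction, with medians of -4.32 and -3.58, and the mean of the 10 was 8.80 at 1D4 and 7.86 at 2D2. In group means OCA2 was 5.55 in the late luteal phase, while the squamous mean there was 11.7, and 5.09 at 2D2 with a squamous mean of 7.86. The late luteal OCA2 mean was thus already close to the brightness limit of 5.53, and the 2D2 mean lay under it. A further fall of OCA2 may therefore be read less well than one of the squamous genes, which was not tested. No stroma gene passed at either DMPA time (medians -0.17 at 2D2 and 1.21 at 1D4), while columnar epithelial genes rose, 6 of 7 at 2D2 and 5 of 7 at 1D4. With the GAPDH covariate 0 probe sets passed at 2D2 and 1631 at 1D4. The part of these shifts in the OCA2 difference after DMPA was not tested.

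**Figure D5:**
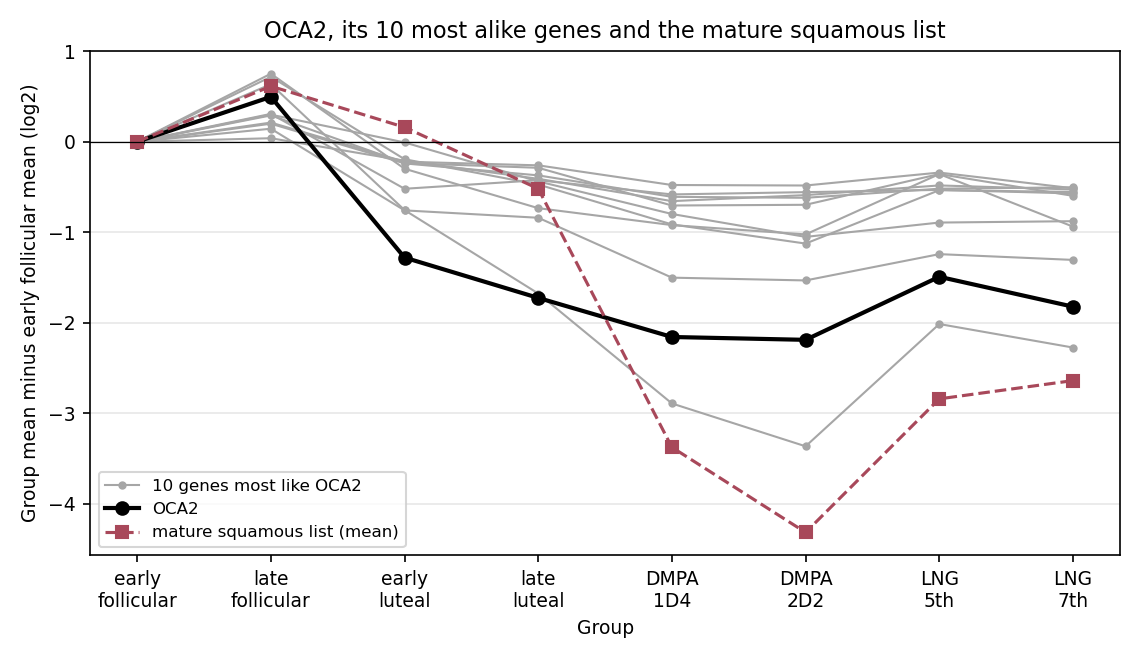
Group means of OCA2 (black), of the 10 genes most like it (grey) and of the mature squamous list (dashed), each minus its own early follicular mean (log2), from the cycle phases to the treated times. In these group means OCA2 has most of its drop by the luteal phases and the squamous list most of its drop after treatment. The OCA2 means at DMPA 1D4 (5.12) and 2D2 (5.09) lie under the brightness limit of 5.53. Whether a floor of the signal limits the later drop of OCA2 was not tested.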

How the data were processed

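The authors deposited log2 expression values, 1 column per array. The submitters' processing notes name affy and Partek without versions, and the sources used here do not say how arrays were normalized. Values were used as deposited. The array annotation names 1 gene for 24969 of 52865 probe sets, several for 361 and none for 27535. Controls (158) and probe sets with a mean under the 40th percentile were left out, and an array labelled duplicate was averaged with its partner, which left 57 samples.

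Models were fitted over all 31624 probe sets in R 4.3.3 with limma 3.58.1, with the animal, taken from the labels, as a block, and Benjamini-Hochberg adjustment. The code was tested on simulated data. Changes are treated minus baseline and luteal minus follicular, with standard errors. OCA2 against baseline, and differences between such changes, are given without a p because baseline samples chose it. Named genes were the members, the 10 most like OCA2 and up to 4 per list with the smallest p, each by its brightest probe set. Members and lists were chosen with earlier results of these data known. Replicates are biopsies of different animals. Sequences of these genes were not analysed here.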

Additional observations from a re-analysis of the deposited data

Results flagged for a closer look

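In 13 of 96 groups (13.5%) of 4 to 10 samples, the highest or lowest sample stood apart from its neighbours by more than a test for a stray value allows, where chance alone gives about 1 in 20. The sample furthest from its group was PMEL at 5.16 in BB4800 at LNG 5th, where the next highest sample was 2.15. PMEL also stood apart at 4.65 in BB4870 at LNG 7th and at 3.64 in PPi2 at DMPA 2D2. OCA2 stood apart at 7.08 in BB269 at LNG 7th, the only sample there above 5.60. The same sample was high for the dimmer TYR probe set, at 3.58.

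BB981 was high in the early follicular phase for that TYR probe set (4.73) and for a DCT probe set (4.59), and BB405 was low for TYRP1 in the early luteal phase (2.41). Other DCT probe sets stood apart at 5.44 in BB0499 (late luteal), 2.13 in PHQ1 (late follicular) and 5.08 in BB173 (LNG 7th). MLANA stood apart on the low side at 5.15 in BB967 (LNG 7th) and at 2.86 in BB0499 (DMPA 2D2, another probe set).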

How the results depend on the processing

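OCA2 differences kept their direction against baseline and between phases in every fit run that kept OCA2, and a filter at the 60th percentile removed it. With the GAPDH covariate the difference was -0.25 at 2D2 and -1.01 at 1D4, and with the actin covariate, added after seeing the data, -1.25 at 2D2. The LNG 7th difference was -1.41 with array weights and -1.26 with equal weight for the 4 phases. The 2D2 change minus the LNG 5th change turned to 0.18 with the GAPDH covariate, and KIT at 2D2 to -0.13. The cause was not tested.

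The animal pairs the samples. Without the replicate block OCA2 differed from baseline by -1.54 at 2D2 and by -1.51 at 1D4, the 2D2 minus 1D4 difference turned to -0.031, and MLANA at LNG 5th turned to -0.016. MLANA, near 0, also turned at 1D4 to 0.064 with array weights and 0.016 with the GAPDH covariate, and between phases to 0.14 on baseline arrays only.

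Leaving out 1 animal at a time gave OCA2 changes from -1.42 to -1.13 at 2D2, -1.69 to -1.23 at 1D4, -1.36 to -0.71 at LNG 5th and -1.67 to -1.23 at LNG 7th, -0.13 to 0.34 for 2D2 minus 1D4, -0.59 to 0.021 for 7th minus 5th, and -0.61 to 0.043 and -0.41 to 0.0024 for the arms at 2D2 and 5th and as means. MLANA ran from -0.15 to 0.22 at 1D4, -0.093 to 0.18 at LNG 5th and -0.13 to 0.078 between phases. The KIT call at 2D2 was lost in 7 of 15 of these fits.

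Counts of passing probe sets moved more. At 1D4 7334 became 11812 with array weights, 1631 with GAPDH, 3095 with 1 probe set per gene, and 3091 (without PHQ1) to 8614 (without PPi2), with 3093, 4164 and 3314 without BB0499, BB0540 or BB981. At 2D2 8874 became 0 with GAPDH, 1469 with actin, 3721 with 1 probe set per gene, and 5523 (without BB981) to 9960 (without BB770). At LNG 5th 0 became 1 without a filter, 748 with a filter at the 60th percentile, 755 with animals as random, 1708 with array weights, 1808 with equal phases, 198 with 1 probe set per gene, and 0 to 3186 without 1 animal (highest without BB4870, then 920 without BB269 and 717 without PPi2). At LNG 7th 2 became 4, 560, 532, 3572 and 1950 in the fits of those names (1 probe set per gene 0), 236 with centred arrays, 684 without the BB4800 sample, 0 without the block, without the duplicate, with GAPDH or with actin, and 0 to 1094 without 1 animal (highest without BB269, then 811 without PPi2). Between phases 542 became 13 without the block, 1317 with animals as random, 3321 with array weights, 7 with GAPDH, 219 with actin, 960 on baseline arrays only, 953 without the BB4800 sample, and 2 to 1420 without 1 animal (lowest without BB4800, highest without BB4870, and 49 or fewer without BB173, BB269, BB537, BB967, BB981 or PPi2).

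OCA2 has 1 probe set, the array holds rhesus sequences, and the repeat array pair differed by 1.58, so single samples are imprecise. Signals as dim as TYR, TYRP1 and PMEL bound changes poorly. OCA2 passed the brightness limit of 5.53 by its mean over the samples. Its group means at LNG 7th (5.45), DMPA 1D4 (5.12) and DMPA 2D2 (5.09) lay under that limit. How well falls of OCA2 are read at that level was not tested.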
